A study of Phaseolus vulgaris with 24 samples.

Results

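The 100 genes described here fell with salt in Ispir roots (IR) and moved little in TR43477 roots (TR), out of 27213 genes in the tables. They were picked from measured root values: a mean difference of under 0.3 either way between salt and control TR roots, no overlap between the salt and control libraries of IR, and then the 100 largest falls in IR. Values are CPM, a gene's counts per 1000000 counts of its library, and differences are means of log2(CPM + 1), salt minus control. The root values of these genes are therefore a description and carry no test, while the leaf libraries played no part in the choice. In IR their differences lay between -4.51 and -1.20 with a median of -1.44, and in TR between -0.30 and 0.27 with a median of -0.11. The medians over all genes were 0 in IR and 0.026 in TR.

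The study grew common bean (*Phaseolus vulgaris*) in hydroponics and compared plants given NaCl with control plants. The groups were salt-treated and control leaves and roots of Ispir, a salt-tolerant genotype, and of TR43477, a salt-susceptible genotype. NaCl stood at 50 mM on the first day, 100 mM on the second and 125 mM from the third, and plants stayed at 125 mM for 3 days. RNA of 3 plants per genotype, tissue and treatment gave 24 libraries in 8 groups, with 12163655 to 26416766 counts each. In bulk tissue, fewer cells of a type and less RNA per cell cannot be told apart.

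Roots take up mineral nutrients through families of membrane carriers whose genes respond to supply and to stress. NNP-type carriers move nitrate against its gradient. NRAMP and ZIP proteins bring divalent metals into cells, and P-type zinc ATPases pump zinc out of the cytosol. Na+/H+ exchangers move sodium or potassium across membranes in exchange for protons. In Arabidopsis, feruloyl-CoA ortho-hydroxylation is the step to coumarins, phenolic compounds that roots release when iron is scarce. The study's tables annotate 19 of the 100 genes, among them genes of each of these families. The other 81 have no name in the files, and of these only those that the results turn on are given by identifier. Sequences were not analysed here.

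The choice had sharp edges in a dense field of genes. Of all genes, 19369 had a TR difference within the limit and 3780 fell in IR with no overlap, which is 16.1% of the 23461 genes with a count in IR. Together, 2498 genes met both conditions with salt lower. The 3 members with the smallest falls in IR had differences of -1.21, -1.20 and -1.20, and the next 3 genes outside had -1.19 each. At the TR limit the nearest members had -0.2968, -0.2991 and -0.2996, and the nearest genes outside had -0.3004, -0.3022 and -0.3029. The narrowest gaps between IR salt and control libraries were 0.186, 0.279 and 0.298 on the log2 scale, and 2 genes with large enough falls stayed out because these groups overlapped. With falls at least as large as that of the last member, 457 genes had no overlap in IR, and 339 of these were left out because they also fell by 0.3 or more in TR.

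**Figure D1:**
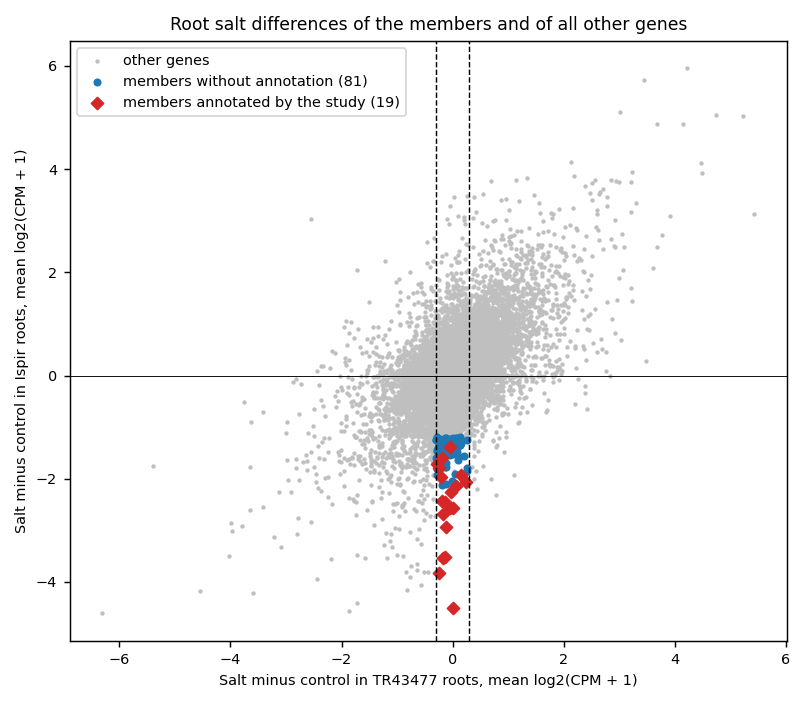
Each point is a gene, with the salt minus control difference in TR43477 roots on the horizontal axis and in Ispir roots on the vertical axis, both in mean log2(CPM + 1), n = 3 libraries per group. The 100 members fill the strip between the dashed lines at -0.3 and 0.3, below an Ispir difference of -1.20.

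A single library bears on much of what follows. TR root control 3 held the lowest level among the TR controls for 60 members and the highest for 20. The CPM of all members summed to 5074 in this library, against 7993 and 9180 in the other TR controls. Its 23 light-harvesting genes, which mark green tissue, summed to 534 CPM, against 156 and 176 CPM in the other TR controls. The same sum was 41.4 to 72.2 CPM in TR salt roots, 116 to 126 CPM in IR salt roots and 208 to 219 CPM in IR control roots, and 4627 CPM or more in every leaf library. Between 4 and 10 of the 23 genes were at 0 in each root library. The part of this library in the TR values was not tested, and TR differences of annotated members with counts in TR are given below with and without it.

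Without TR root control 3, the TR difference was -0.3 or lower for 40 of the 100 members, 0.3 or higher for 6 and within the limit for 54, with a median of -0.22. Every one of the 100 still had a smaller TR than IR difference in size. The choice, which set both differences, fixes much of this, and nothing is read from it. Leaving out TR root control 1 or 2 instead gave medians of 0.00 and -0.016. Then 13 and 9 members were at -0.3 or lower, and 11 and 12 were at 0.3 or higher. Without TR root salt 3, 21 members were at -0.3 or lower and 0 at 0.3 or higher. The same choice made again without TR root control 3 kept 54 of the members, and without TR root control 1 or 2 it kept 57 and 66. Without any other root library it kept 75 to 85. In all 12 of these repeats 14 members were kept, and 5 of them are annotated: a legume lectin, an MYB protein, an ABC transporter, an achaete-scute homolog and a C2 domain protein. The lectin and ABC transporter genes had 0 counts in all TR roots and the MYB gene at most 3, so that their TR differences had little room to move and their place says nothing of stability.

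**Figure D2:**
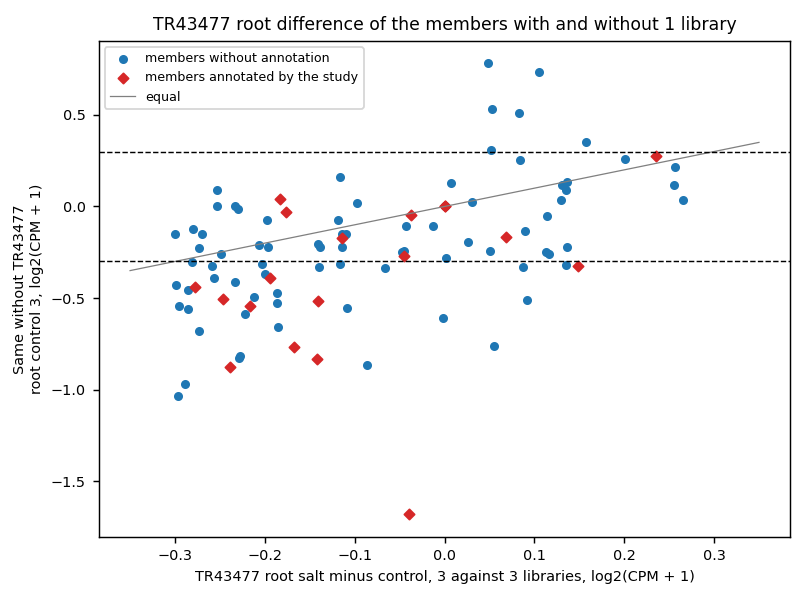
Each point is a member, with its TR43477 root difference from 3 salt and 3 control libraries on the horizontal axis and the same difference without TR root control 3 on the vertical axis, both in log2(CPM + 1). Below the lower dashed line at -0.3 lie 40 members and above the upper line 6.

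The members' CPM summed to 2532 to 3498 in IR salt libraries, against 8398 to 9034 in IR control libraries. In TR the sums were 5599 to 7397 in salt libraries, against 5074 to 9180 in control libraries. The groups were apart in IR and overlapped in TR. The choice fixed the first and bears on the second, and abundant members weigh most in the sums, so nothing is read from them. Mean levels in IR control roots ran from 1.56 to 2824 CPM with a median of 16.6 CPM, and 16 members reached 100 CPM or more. The median of the members' mean levels was 4.87 CPM in IR salt, 16.6 CPM in IR control, 9.31 CPM in TR salt and 11.5 CPM in TR control roots. In IR salt roots, 8 members had at most 3 counts in every library, which is the detection limit used here and equals 0.114 to 0.247 CPM.

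Among the nutrient carriers, the largest fall was that of Phvul.011G083500, annotated as a nitrate/nitrite transporter of the NNP family (chromosome 11 from 7892402 to 7895149). It had 21.3, 16.3 and 36.8 CPM in IR salt roots, against 593, 390 and 181 CPM in IR control roots, a 15.7-fold lower mean. In TR it had 173, 67.9 and 164 CPM in salt roots, against 429, 122 and 60.4 CPM in control roots. All IR salt libraries lay far below all IR controls, and the TR control libraries spread over the whole range of the TR salt libraries. Its TR difference of -0.24 became -0.88 without TR root control 3 and 0.53 without TR root control 1. It had 0 counts in all 12 leaf libraries.

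Phvul.003G238600, annotated as a natural resistance-associated macrophage protein (NRAMP), had 47.2, 72.2 and 114 CPM in IR salt roots, against 389, 389 and 428 CPM in IR control roots, 5.16-fold lower. TR salt roots had 171, 154 and 209 CPM, against 268, 240 and 115 CPM in TR control roots. A pair of the TR controls thus lay above all TR salt libraries and the remaining control, replicate 3, lay below them. Its TR difference was -0.14 and became -0.52 without that library. The zinc-exporting ATPase Phvul.009G240000 had 69.0, 131 and 106 CPM in IR salt roots, against 360, 365 and 260 CPM in IR control roots, 3.22-fold lower. Its TR levels were 209, 175 and 270 CPM in salt roots, against 331, 256 and 209 CPM in control roots. Its TR difference was -0.28, and -0.44 without TR root control 3.

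The zinc transporter 10 precursor Phvul.002G099700 was among the most abundant members and fell least of the carriers, with a difference of -1.39 in IR. It had 243, 364 and 463 CPM in IR salt roots, against 857, 910 and 953 CPM in IR control roots. Levels in TR were 1233, 910 and 1424 CPM in salt roots, against 1634, 1214 and 884 CPM in control roots, and its TR difference was -0.045, or -0.27 without TR root control 3. Every TR salt library lay above every IR salt library, while the control libraries of the genotypes overlapped. The choice of the gene for its fall in IR bears on this, and nothing is read from it. The Na+/H+ exchanger 2 gene Phvul.006G097100 was scarce. It had 2.22, 1.76 and 2.44 CPM in IR salt roots, against 6.0, 4.55 and 20.8 CPM in IR control roots, where replicate 3 alone set most of the mean. In TR it had 7.60, 5.79 and 5.15 CPM in salt roots, against 8.41, 4.06 and 10 CPM in control roots, and the groups overlapped. Its TR difference was -0.18, or 0.043 without TR root control 3. Without TR root control 2 the difference was -0.52, and without TR root salt 1 it was -0.32.

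**Figure D3:**
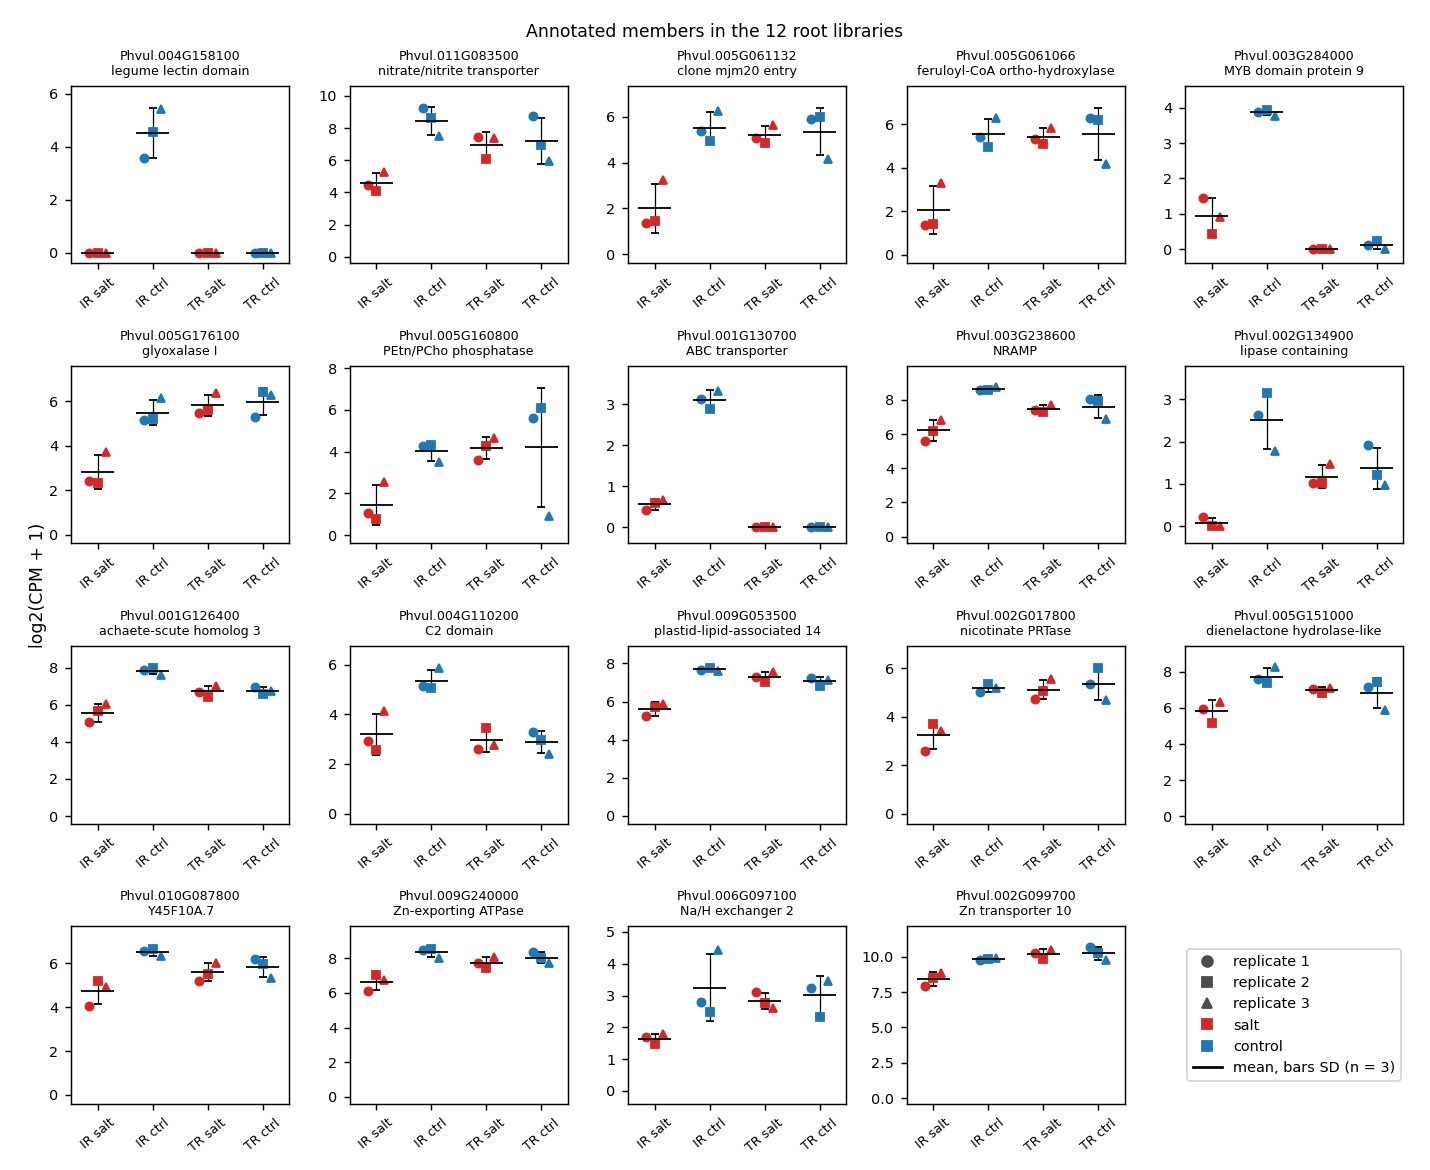
Levels of the 19 annotated members in the 12 root libraries, as log2(CPM + 1). Points are libraries (salt red, control blue, shapes give the replicate), lines are group means and bars are SD (n = 3). In every panel the Ispir salt libraries lie below the Ispir controls, and in 13 panels TR root control 3 (triangle) is the lowest TR control.

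The feruloyl-CoA ortho-hydroxylase gene Phvul.005G061066 (chromosome 5 from 8802291 to 8805029) had 1.56, 1.69 and 8.87 CPM in IR salt roots, against 41.7, 29.8 and 76.1 CPM in IR control roots, 12.2-fold lower. TR salt roots had 38.9, 32.9 and 56.3 CPM, against 77.2, 72.8 and 17.0 CPM in TR control roots. As for the NRAMP gene, TR root control 3 lay below all TR salt libraries and the other controls above them, and the TR difference of -0.14 became -0.83 without it. The next gene on the chromosome, Phvul.005G061132, listed under the name of a genomic clone, is the third member by size of fall. Both genes had 19 counts in IR salt root 1 and 24 in IR salt root 2, and 380 against 378 counts in IR control root 2. In TR they were less alike, with 1029 counts for Phvul.005G061066 against 793 for Phvul.005G061132 in TR control root 1. How reads shared by near-identical genes were counted is not given in the sources used here, so the pair is uncertain as 2 separate falls.

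Phvul.005G160800 is annotated as a phosphoethanolamine/phosphocholine phosphatase, an enzyme type that frees phosphate from lipid head groups. It had 1.07, 0.703 and 4.73 CPM in IR salt roots, against 17.9, 19.1 and 10.2 CPM in IR control roots, 7.27-fold lower. Its TR levels were 11, 18.4 and 23.8 CPM in salt roots, against 48.2, 66.4 and 0.900 CPM in control roots. The small TR difference of -0.039 came from controls on both sides of the salt libraries, and it was -1.68 without TR root control 3, the lowest such value among the members. The lipase containing protein Phvul.002G134900 had 2, 0 and 0 counts in IR salt roots, against 69, 99 and 34 counts in IR control roots. Levels in TR were 1.04, 1.02 and 1.79 CPM in salt roots, against 2.78, 1.31 and 0.970 CPM in control roots, a TR difference of -0.19, or -0.39 without TR root control 3.

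The achaete-scute homolog 3 gene Phvul.001G126400 fell in IR and stayed close to its control level in TR with each library left out. Achaete-scute proteins, known from animals, are basic helix-loop-helix transcription factors. The gene had 32.2, 48.8 and 63.8 CPM in IR salt roots, against 236, 248 and 196 CPM in IR control roots, 4.69-fold lower. In TR it had 102, 85.7 and 129 CPM in salt roots, against 122, 94.5 and 106 CPM in control roots. Its TR difference of -0.037 lay between -0.19 and 0.10 when any TR library was left out. TR levels sat between those of IR salt and IR control roots, without overlap with either.

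The C2 domain gene Phvul.004G110200 was less abundant in TR roots than in IR control roots. C2 domains bind membranes, often with calcium. It had 6.49, 4.92 and 16.5 CPM in IR salt roots, against 33.9, 32.7 and 56.5 CPM in IR control roots, 4.42-fold lower. TR salt roots had 5.13, 9.99 and 5.80 CPM, against 8.71, 6.75 and 4.29 CPM in TR control roots, a TR difference of 0.068, or -0.17 without TR root control 3. All TR libraries lay below all IR controls and overlapped the IR salt libraries.

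For 3 annotated members, little or nothing was counted in TR in either condition, so that a fall could not be seen there. The legume lectin gene Phvul.004G158100 (chromosome 4 from 46258583 to 46259432), of a family of sugar-binding proteins, had the largest fall of all members. It had 0 counts in all IR salt roots, against 10.7, 22.3 and 41.9 CPM in IR control roots, and 0 counts in all TR roots. Its mean was at least 110.3-fold lower after salt in IR, taking 3 counts per salt library as the floor. The ATP-binding cassette transporter gene Phvul.001G130700 had 0.329, 0.492 and 0.591 CPM in IR salt roots, against 7.73, 6.36 and 9.10 CPM in IR control roots, and 0 counts in all TR roots. Phvul.003G284000, annotated as MYB domain protein 9, a regulator of suberin in Arabidopsis, had 1.73, 0.351 and 0.887 CPM in IR salt roots, against 13.8, 14.3 and 12.7 CPM in IR control roots. It had 0 CPM in all TR salt roots, against 0.0751, 0.179 and 0 CPM in TR control roots. Over all members, 5 had at most 3 counts in every TR root library and 16 averaged under 1 CPM in TR roots.

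The remaining annotated members are enzymes or proteins of less certain role. The glyoxalase I gene Phvul.005G176100, whose product detoxifies methylglyoxal, had 4.27, 4.07 and 12 CPM in IR salt roots, against 34.3, 36.4 and 69.2 CPM in IR control roots, 6.86-fold lower. Its TR levels were 43.9, 47.3 and 81.6 CPM in salt roots, against 38.0, 84.1 and 77.0 CPM in control roots, and its TR difference of -0.18 was -0.030 without TR root control 3. Without TR root control 1 the TR difference was -0.53 and without TR root salt 3 it was -0.45, both beyond the limit.

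The plastid-lipid-associated protein 14 gene Phvul.009G053500 had 36.2, 52.1 and 58.0 CPM in IR salt roots, against 199, 219 and 196 CPM in IR control roots, 4.19-fold lower. Levels in TR were 157, 129 and 189 CPM in salt roots, against 150, 111 and 140 CPM in control roots, a TR difference of 0.23, or 0.27 without TR root control 3. The TR libraries overlapped with each other and stood clear of both IR groups. The nicotinate phosphoribosyltransferase gene Phvul.002G017800, of NAD salvage, had 5.09, 11.9 and 9.68 CPM in IR salt roots, against 31.8, 39.6 and 35.9 CPM in IR control roots. In TR it had 25.8, 32.9 and 45.7 CPM in salt roots, against 39.5, 63.1 and 24.7 CPM in control roots, and the difference was -0.22, or -0.55 without TR root control 3.

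The dienelactone hydrolase-like gene Phvul.005G151000 had 61.7, 34.6 and 79.9 CPM in IR salt roots, against 192, 166 and 302 CPM in IR control roots. TR salt roots had 133, 111 and 135 CPM, against 142, 175 and 58.4 CPM in TR control roots. Its TR difference changed sign with the library, 0.15 with TR root control 3 and -0.32 without it. Phvul.010G087800, listed under the name of a worm protein, had 15.9, 36.0 and 29.0 CPM in IR salt roots, against 92.6, 101 and 78.9 CPM in IR control roots. Its TR levels were 36.1, 44.7 and 64.5 CPM in salt roots, against 73.1, 61.6 and 39.0 CPM in control roots, a TR difference of -0.25, or -0.50 without TR root control 3. Over the 19 annotated members, TR root control 3 was the lowest TR control in 13, and without it 10 had a TR difference of -0.3 or lower and 9 were within the limit.

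Of the 15 largest falls, 13 belonged to annotated genes, and the others were Phvul.005G137500 and Phvul.006G209700. Annotation came only from the study's lists, and 16 of the 19 annotated members are on its root list. The study chose that list on these libraries, so nothing is read from the number of annotated genes among the largest falls. Phvul.005G137500 had 0.657, 0.703 and 0.443 CPM in IR salt roots, against 6.75, 16.5 and 1.49 CPM in IR control roots, and 0.0693 to 1.13 CPM in TR roots. Its IR controls were widely spread. Phvul.006G209700 had 0, 2 and 1 counts in IR salt roots, against 66, 28 and 57 counts in IR control roots, and 2 to 4 counts in each TR root library. This gene was a leaf gene by level, as given below with the leaf values. The most abundant member, Phvul.009G239000, was also without annotation. It had 1068, 961 and 1287 CPM in IR salt roots, against 2952, 2463 and 3058 CPM in IR control roots. Levels in TR were 2289, 1862 and 2287 CPM in salt roots, against 3135, 2894 and 1670 CPM in control roots, a TR difference of -0.21, or -0.50 without TR root control 3.

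By position, 20 members lay on chromosome 2, which holds 12.2% of all genes, and 15 on chromosome 1, which holds 9.78%. A gap of at most 10 genes separated 8 pairs of members, made up of 15 genes. How often other genes lie this close was not counted, and nothing is read from the number of pairs. The lectin gene and Phvul.004G158200 had no gene between them and lay 2472 bases apart on the same strand. Phvul.004G158200 had 0 counts in all IR salt roots, against 1.2, 1.57 and 5.55 CPM in IR control roots. On chromosome 2, Phvul.002G134600, Phvul.002G134801 and the lipase gene Phvul.002G134900 lay within 27904503 to 27950368, with 1 gene between the first pair and none between the second. The zinc-exporting ATPase gene had the abundant Phvul.009G239000 as its neighbour, with 9 genes between them. The median span of the members was 3152 bases, against 2957 bases for all genes.

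In TR roots, salt and control libraries overlapped for 97 of the members, and salt was lower without overlap for 3 and higher for 0, where 7.44% and 16.9% of all genes with a count were. The rule on the TR difference fixes much of this, and nothing is read from it. Between the genotypes, all IR control libraries lay above all TR controls for 51 members and below them for 3. Over all genes with a count in control roots these shares were 18.9% and 14.2%. In salt roots the IR libraries lay above all TR libraries for 7 members and below them for 63, against 17.1% and 18.8% of all genes. For the 84 members with at least 1 CPM on average in TR roots, the median ratio of Ispir to TR43477 means was 0.479 in salt roots and 1.53 in control roots. These counts come from the libraries that chose the members and are a description.

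**Figure D4:**
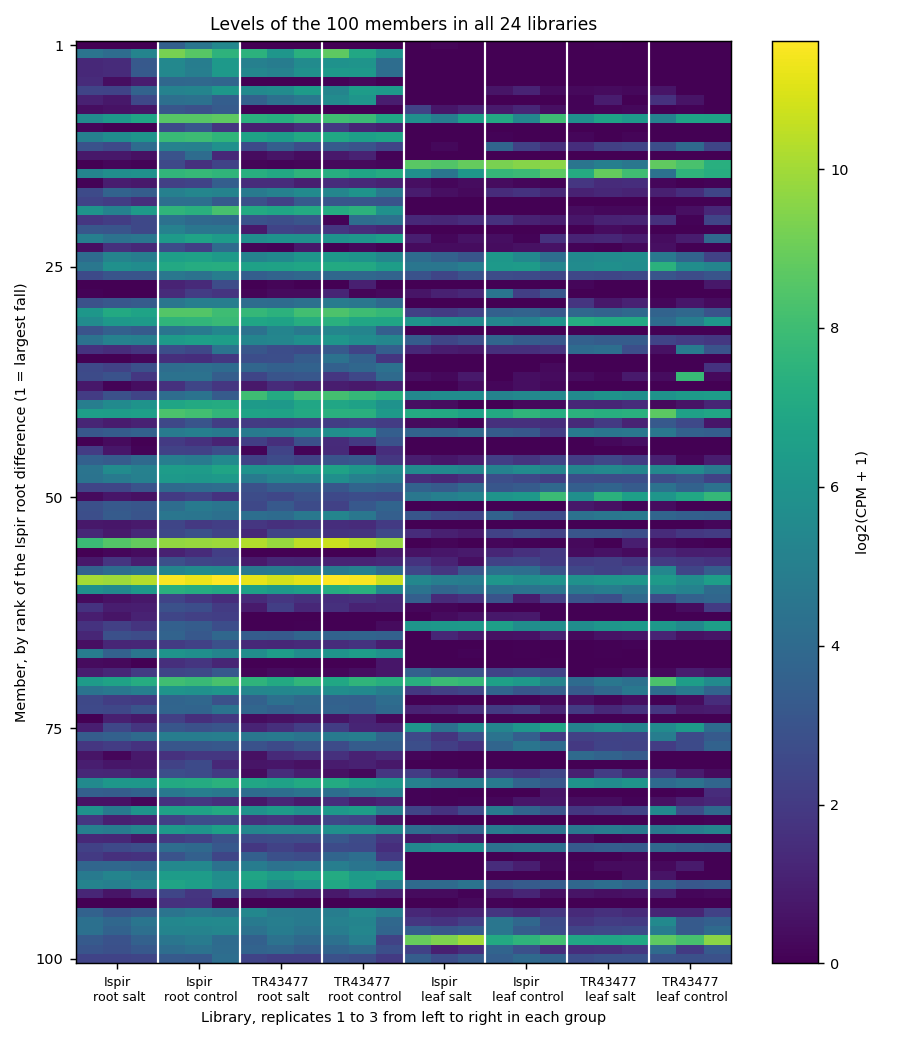
Levels of the 100 members in all 24 libraries as log2(CPM + 1), members from top to bottom by the size of their fall in Ispir roots and libraries in 8 groups of 3. The Ispir salt root columns are darker than the control columns beside them, and many members are near 0 in the leaf columns at the right.

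Many members were scarcer in leaves than in roots. The root levels come from libraries that chose the members, and a large fall needs a high level in IR control roots, so the counts against roots are a description. The highest of the 6 control leaf libraries was below the lowest of the 6 control root libraries for 49 members, and the reverse held for 5. Among the 18386 genes at least as abundant in IR control roots as the lowest member, these shares were 36.4% and 9.53%, and among all genes with a count 29.8% and 12.2%. At most 3 counts in every one of the 12 leaf libraries were found for 21 members, against 4.34% of those genes. These 21 included the nitrate/nitrite transporter, the feruloyl-CoA ortho-hydroxylase gene and its neighbour Phvul.005G061132, the MYB gene, the lectin gene and the lipase gene. The median of the members' mean levels was 0.623 CPM in IL salt, 1.62 CPM in IL control, 1.37 CPM in TL salt and 1.10 CPM in TL control leaves (IL and TL, leaves of Ispir and TR43477).

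The leaf libraries allowed a test of whether these genes responded to salt outside the root. In IL, 79 members had a count and 2 passed an absolute log2 fold change above 1 with an adjusted p under 0.01 (edgeR's quasi-likelihood test, with p-values adjusted over all genes by the method of Benjamini and Hochberg). Of all genes tested, 4.81% passed, 2.66% higher and 2.15% lower. The member that fell was the zinc-exporting ATPase gene Phvul.009G240000, which thus was lower after salt in Ispir leaves as in Ispir roots. It had 3.62, 3.11 and 4.05 CPM in IL salt leaves, against 10.8, 12 and 8.61 CPM in IL control leaves, with no overlap. Its log2 fold change was -1.44 (derived standard error 0.23, adjusted p = 0.0087 from edgeR's quasi-likelihood test). In TL it had 13.6, 11.8 and 14.4 CPM in salt leaves, against 12.1, 14.1 and 6.96 CPM in control leaves, a log2 fold change of 0.018 (adjusted p = 0.97 from the same edgeR test). The difference between the genotypes' responses was -1.45 and did not pass (adjusted p = 0.034 from edgeR's interaction test). With a library left out, 5 of 6 fits no longer called it, at adjusted p-values of up to 0.049 (edgeR). The number of members that passed in IL was 0 without IL control replicate 2, IL salt replicate 2 or IL salt replicate 3, 1 without IL salt replicate 1 and 6 without IL control replicate 3.

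The member that rose in IL, Phvul.002G079200, had 40.3, 49.5 and 48.8 CPM in IL salt leaves, against 19.7, 21.5 and 17.8 CPM in IL control leaves. Its log2 fold change of 1.33 (derived standard error 0.18, adjusted p = 0.0046 from edgeR's quasi-likelihood test) went opposite to its fall in IR. At an unadjusted p under 0.05, 8 members were higher and 27 lower in IL (edgeR), where 16.0% and 18.2% of all genes were. The median log2 fold change was -0.76 over the 79 members and -0.087 over all genes. All IL salt libraries lay above all IL controls for 7 members and below them for 28, against 16.5% and 23.8% of all genes. Among annotated members that did not pass in IL, the plastid-lipid-associated gene had a log2 fold change of -2.46 (adjusted p = 0.014 from edgeR) and the C2 domain gene -5.92 (adjusted p = 0.014 from edgeR). Phvul.009G053500 had 55.1, 22.1 and 70.9 CPM in IL salt leaves, against 213, 239 and 408 CPM in IL control leaves. The groups did not overlap for this gene.

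In TL, 83 members had a count and 4 passed, 2 higher and 2 lower, against 5.09% of all genes, 2.62% higher and 2.46% lower (edgeR, adjusted over all genes). None of the 4 is annotated. Phvul.011G106300 had 15.2, 12 and 9.19 CPM in TL salt leaves, against 0 counts in all TL control leaves, at least 54.9-fold higher with 3 counts per control library as the floor (adjusted p = 0.0028 from edgeR). It had at most 0.164 CPM in any Ispir leaf. Phvul.003G144200 had 61.7, 48.5 and 64.4 CPM in TL salt leaves, against 15.8, 19.6 and 12.7 CPM in TL control leaves, a log2 fold change of 1.62 (adjusted p = 0.0086 from edgeR). Both rose in TL while they were chosen for a fall in IR.

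Phvul.006G209700, nearly absent from salt roots, was abundant in leaves. It had 21.7, 31.6 and 23.1 CPM in TL salt leaves, against 435, 309 and 161 CPM in TL control leaves, a log2 fold change of -3.81 (derived standard error 0.42, adjusted p = 0.0035 from edgeR). In IL it had 394, 351 and 462 CPM in salt leaves, against 626, 730 and 781 CPM in control leaves, and its log2 fold change of -0.73 did not pass (adjusted p = 0.060 from edgeR). Phvul.010G157200 had 116, 112 and 121 CPM in TL salt leaves, against 428, 302 and 766 CPM in TL control leaves, a log2 fold change of -2.32 (adjusted p = 0.0082 from edgeR). At an unadjusted p under 0.05, 9 members were higher and 19 lower in TL (edgeR), against 16.1% and 18.8% of all genes, and the median was -0.48 over members and -0.087 over all genes. All TL salt libraries lay above all TL controls for 13 members and below them for 13, against 30.3% and 13.5% of all genes. Light-harvesting genes summed to 4627 to 5527 CPM in TL salt leaves, against 32942 to 64697 CPM in TL control leaves, and the part of that shift in the members' TL values was not tested. The number that passed was 0 without any of the 3 TL salt libraries in turn, and 6 without TL control replicate 3.

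**Figure D5:**
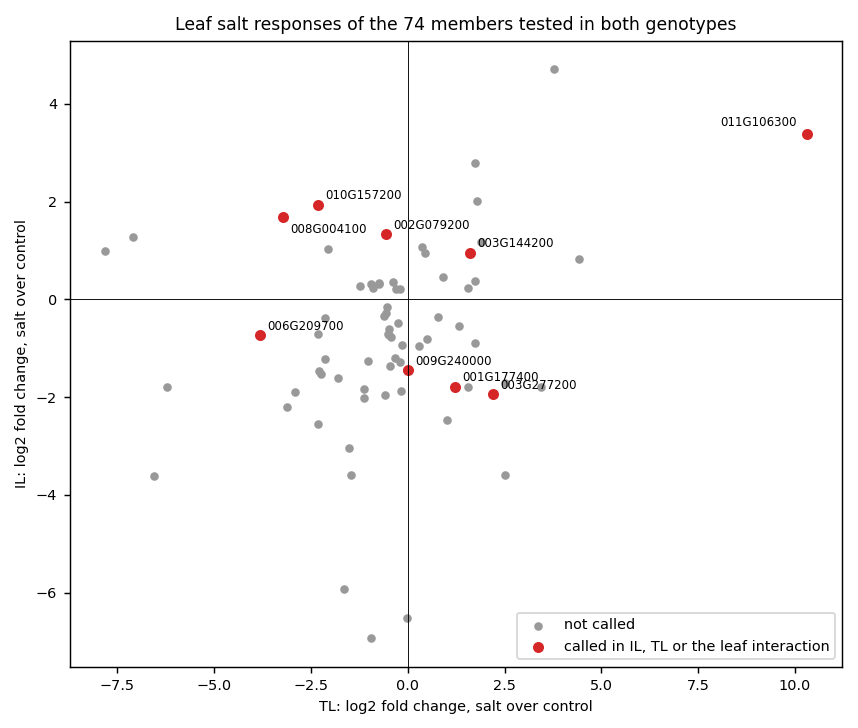
Each point is 1 of the 74 members tested in the leaves of both genotypes, with the fitted log2 fold change (salt over control) in TR43477 leaves on the horizontal axis and in Ispir leaves on the vertical axis. The 9 members that passed in IL, TL or the leaf interaction are red with their identifiers, and fitted values of genes with 0 counts in a group, such as 011G106300, depend on the prior count.

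The leaf interaction asked whether the salt response of leaves differed between the genotypes. Of 88 members tested, 4 passed with a higher and 2 with a lower response in Ispir, against 3.10% and 2.04%, or 5.14% together, of all genes (edgeR's interaction test over 12 leaf libraries). The 2 with the smallest adjusted p were Phvul.010G157200 and Phvul.002G079200. Phvul.010G157200 had 476, 652 and 1016 CPM in IL salt leaves, against 133, 186 and 277 CPM in IL control leaves. Its log2 fold change of 1.94 in IL did not pass (adjusted p = 0.021 from edgeR), while its fall in TL did. The difference in response was 4.26 on the log2 scale (derived standard error 0.57, adjusted p = 0.0018 from edgeR). For Phvul.002G079200 the difference was 1.91 (derived standard error 0.26, adjusted p = 0.0019 from edgeR), with 8.85, 10 and 9.45 CPM in TL salt leaves, against 14.1, 11.3 and 10.2 CPM in TL control leaves. These 2 passed in all 12 fits that left out a library, while the number of members that passed fell to 2 without IL control replicate 2, TL salt replicate 1 or TL salt replicate 3, and to 3 without IL salt replicate 2, IL salt replicate 3 or TL salt replicate 2.

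Between the genotypes in control leaves, 0 of 84 members passed, against 0.535% of all genes (edgeR, adjusted over all genes). At an unadjusted p under 0.05, 11 were higher and 9 lower in Ispir (edgeR), against 11.6% and 12.4% of all genes. DESeq2 with the same thresholds called 3 higher and 1 lower, against 3.93% and 5.68% of all genes. The median log2 ratio of Ispir to TR43477 was -0.35 over these members and -0.028 over all genes. Whether the genotype difference itself differed between root and leaf was not tested.

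The other metal and ion carriers of the study's tables set the members in context. The study chose its root list on these libraries, so that the direction of that list is not independent evidence. By words for iron acquisition and for metal transport, efflux or tolerance, 7 genes of the root list were picked, 2 of them members. The choice fixed the fall of these 2 in IR and their small TR difference. They enter the counts and medians below, and nothing is read from them. In IR 3 of the 7 passed with salt lower, 1 of them a member whose IR values chose it, and 0 passed higher, against 1.48% of all genes lower and 2.57% higher, and in TR 0 of 7 passed, against 0.456% of all genes, 0.266% lower and 0.190% higher (edgeR). The median log2 fold change of the 7 was -3.32 in IR and -0.71 in TR, against 0.0091 in IR and 2.3e-04 in TR over all genes. At an unadjusted p under 0.05, 7 were lower and 0 higher in IR, against 12.4% and 15.3% of all genes, and 2 were lower and 0 higher in TR, against 8.64% and 8.42% (edgeR). DESeq2 called 6 lower and 0 higher in IR, against 3.01% and 4.92% of all genes, and 0 in TR, against 1.88% lower and 1.76% higher. The count in IR was 0 without IR control replicate 1 or 2, 1 without IR control replicate 3 and 7 without IR salt replicate 3, and in TR it was 1, lower, without TR control replicate 3.

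Among non-members of this group, the cation efflux or zinc transporter gene Phvul.003G021300 had a log2 fold change of -2.95 in IR (derived standard error 0.35, adjusted p = 0.0026 from edgeR) and -0.98 in TR (adjusted p = 0.25 from edgeR). The metal tolerance protein C3-related gene Phvul.008G244200 had -3.12 in IR (adjusted p = 0.0074 from edgeR) and -0.80 in TR (adjusted p = 0.36 from edgeR). The ferric reduction oxidase 2-related gene Phvul.010G101500, whose family reduces iron at the root surface in Arabidopsis, had -3.42 in IR (adjusted p = 0.012 from edgeR) and -0.56 in TR (adjusted p = 0.45 from edgeR). The other feruloyl-CoA ortho-hydroxylase gene, Phvul.010G036100, had -3.32 in IR (adjusted p = 0.066 from edgeR) and -1.10 in TR (adjusted p = 0.32 from edgeR). All 4 fell further in IR than the NRAMP gene on the log2(CPM + 1) scale, and they are not members because their TR differences exceeded the limit of 0.3.

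Of 10 zinc carriers in the transporter table, 5 passed lower and 1 higher in IR, where 1.48% and 2.57% of all genes did, and 0 passed in TR, where 0.266% and 0.190% did (edgeR). Of the 10, 2 are members, and 1 of these is among the 5. Their falls in IR and small TR differences were fixed by the choice, as were those of the 1 member among the sodium carriers. The shares of all genes that passed hold for the other lists of the table too. The paper cites this table for carriers that it found to respond to salt in these libraries, and its primary metabolism genes likewise. The shares of all genes are therefore no independent measure for these lists, and nothing is read from the excess over them. The shares of all genes at an unadjusted p and by DESeq2 are as given for the 7 metal genes of the root list. Of the zinc carriers, 7 were lower and 1 higher in IR at an unadjusted p under 0.05 (edgeR), and DESeq2 called 7 lower and 1 higher. In TR 1 was higher and 2 lower at an unadjusted p under 0.05 (edgeR), and DESeq2 called 1 higher. The count in IR was 0 without IR control replicate 1 or 2, 1 without IR control replicate 3 or IR salt replicate 3, and 3 without IR salt replicate 1 or 2, and in TR it was 1 without TR control replicate 3. Potassium carriers passed lower in 2 of 13 in IR and in 2 of 13 in TR, copper carriers in 2 of 9 in IR, and sodium carriers in 0 of 6 in either. Of the sodium carriers, 1 was higher and 2 lower in IR at an unadjusted p under 0.05, with 2 higher and 0 lower in TR (edgeR), and DESeq2 called 1 higher and 2 lower in IR and 1 higher in TR. Over all transporters of the table, 9 of 44 tested were lower and 1 higher in IR, and 2 of 45 lower in TR. Primary metabolism genes held no member, with 7 higher and 3 lower of 63 in IR. For the difference between the genotypes' root responses itself, 0 of 24210 genes passed (edgeR's quasi-likelihood interaction test) and 2975 had an unadjusted p under 0.05. DESeq2 called 253 genes in that interaction, and leaving out TR root control 2 gave 34 with edgeR.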

How the data were processed

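The authors prepared stranded poly(A) libraries, checked reads with FastQC, trimmed them with Trimmomatic and used HISAT2 for alignment, with version v2.1 of the bean genome. The deposited counts per gene were made with SeqMonk v1.44.0 and are not normalized. The authors' p-value and FDR columns and their log2 fold change column come from their own edgeR comparison of salt with control, and were not used. Rules for multiply mapped reads are not given in the sources used here.

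Each table held 27213 genes. For the choice of members, CPM used library totals and a pseudocount of 1. Totals ran from 12163655 to 26416766, and a floor of 3 counts, 0.114 to 0.247 CPM, was taken as the detection limit. These limits cover counting error only. The members and the lists were chosen with earlier results of these data known.

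Each fit took the genes with at least 1 count in its libraries, TMM normalization and the two-sided quasi-likelihood test (edgeR 4.0.16, limma 3.58.1, R 4.3.3), with Benjamini-Hochberg adjustment over all genes of the fit. The study's thresholds were kept: a log2 fold change above 1 in size, with an adjusted p under 0.01. Within a genotype and tissue, 3 salt-treated plants were set against 3 control plants. The leaf and root interactions used the 12 libraries of a tissue. Standard errors were derived by dividing the size of the log2 fold change by the root of its F statistic. No test of a single member in roots is given, since root values chose the members. Members on the carrier lists do enter the counts and medians of those lists. Alternatives were DESeq2 1.42.0, upper-quartile normalization, filterByExpr, the likelihood ratio test, an adjusted p under 0.05, 1 fit of all 12 leaf libraries, a replicate block and each library left out. The procedure was tested on simulated data. Changes were set there only in genes well above the detection limit, so that test does not cover scarce members.

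Named genes were the 15 largest falls, every member annotated by the study's tables, up to 5 members with the smallest adjusted p among those passing each leaf test, and neighbours at most 10 genes apart. Genes at the thresholds are given by value only. Non-members of the carrier lists were named after their values were seen. The reference gene table matched 0 identifiers, so lists by product words, root markers and promoter motifs were not analysed here.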

Additional observations from a re-analysis of the deposited data

Results flagged for a closer look

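The leaf salt responses of 6 members differed between the genotypes by edgeR's interaction test, given as Ispir minus TR43477 in log2 units. The response was higher in Ispir for Phvul.010G157200 (4.26, adjusted p = 0.0018), Phvul.002G079200 (1.91, adjusted p = 0.0019), Phvul.006G209700 (3.10, adjusted p = 0.0030) and Phvul.008G004100 (4.95, adjusted p = 0.0049). Phvul.006G209700 had lower fitted values after salt in both genotypes, -0.73 in Ispir and -3.81 in TR43477, so its difference is a smaller fall in Ispir. Phvul.008G004100 had 160, 239 and 213 CPM in Ispir salt leaves, against 96.9, 73.7 and 36.1 CPM in Ispir control leaves, and 15.6, 23.2 and 18.6 CPM in TR43477 salt leaves, against 324, 88.6 and 46.7 CPM in TR43477 control leaves. The response was lower in Ispir for Phvul.001G177400 (-3.01, adjusted p = 0.0033 from edgeR) and Phvul.003G277200 (-4.13, adjusted p = 0.0053 from edgeR). For Phvul.008G004100, Phvul.001G177400 and Phvul.003G277200, neither the Ispir nor the TR43477 leaf response passed on its own. Phvul.003G277200 had 0.904, 0.611 and 0.891 CPM in Ispir salt leaves, against 3.47, 2.35 and 4.0 CPM in Ispir control leaves, and 3.21, 4.62 and 3.15 CPM in TR43477 salt leaves, against 1.05, 0.153 and 0.835 CPM in TR43477 control leaves. Phvul.001G177400 likewise was lower with salt in all Ispir leaves and higher in all TR43477 leaves. With 1 library left out, the interaction no longer passed in 8 of 12 fits for Phvul.003G277200, in 6 each for Phvul.001G177400 and Phvul.008G004100, in 3 for Phvul.006G209700 and in 0 for Phvul.002G079200 and Phvul.010G157200. The files do not pair the 6 identifiers with names.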

How the results depend on the processing

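Directions of all 12 single results (9 members in the leaf tests) held under every alternative run. The number of members that passed was 2 in IL, 4 in TL, 6 in the leaf interaction and 0 between control leaves. DESeq2 gave 23, 14, 15 and 4 in that order, the likelihood ratio test 23, 12, 13 and 6, and an adjusted p under 0.05 gave 24, 12, 14 and 2. With all 12 leaf libraries in 1 fit the numbers were 5 in IL, 9 in TL and 4 between control leaves. With 1 library left out they lay between 0 and 6 in IL, 0 and 6 in TL, 2 and 7 in the interaction, and were 0 between control leaves. Same-numbered salt and control libraries did not all deviate together (correlations of 0.201, -0.146 and 0.241 in Ispir leaves, -0.166, -0.019 and -0.022 in TR43477 leaves, -0.08, 0.39 and 0.332 in Ispir roots, and -0.027, 0.039 and 0.074 in TR43477 roots), so the numbers were not taken to pair plants, and the replicate block gave 3 in IL, 0 in TL, 9 in the interaction and 0 between control leaves. Of the members, 62 were kept with log2(CPM + 4), 64 with a TR43477 limit of 0.2, 67 with log2(CPM + 0.25), 81 with TMM-scaled CPM, 84 with a mean of at least 1 CPM in TR43477 roots and 54 to 85 with 1 root library left out. For the carrier lists and the root interaction the alternatives were chosen after seeing the data. Of the 7 metal genes of the root list 3 passed in IR, and DESeq2 gave 6, the replicate block 7 and fits without 1 library 0 to 7. In TR 0 passed, and 0 to 1 without 1 library. Of the zinc carriers 6 passed in IR, DESeq2 called 7 lower and 1 higher, and fits without 1 library gave 0 to 3. In TR 0 passed, with 1 by DESeq2 and 0 to 1 without 1 library. The root interaction gave 0 genes, 253 by DESeq2 and 0 to 34 without 1 library. For members at a few counts in salt roots, depth limits the size of a fall. A member with a narrow gap had 29, 29 and 3 counts in IR control roots, against 0 in all IR salt roots. The part of depth in which falls were seen was not tested.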
